A study of Mus musculus with 4 samples.

Results

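The 47 genes described here belong to gene families known from mitosis and microtubules: cyclins and mitotic kinases, the anaphase-promoting complex, centromere and passenger proteins, condensin, kinesins, spindle regulators and tubulins. Since the choice went by name, it also took in genes that do not act on the spindle, such as transport kinesins and Cdca7. They were chosen by their gene symbols, which had to begin with the name of one of these families, and by detection (detection p under 0.05) on at least 2 of the 4 arrays. A gene with several probes was represented by the probe with the highest mean. RefSeq lists 174 mouse genes with such a symbol, 159 of them protein-coding. Of the 174, 64 had a probe that could be named, and 47 of those passed detection. They were 47 of the 3983 genes with a symbol and of the 15215 features tested.

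RNA came from cultured C57BL/6 B cells of genotype prdm1-/-, which lack the transcription factor Blimp-1 in every group. CD40 ligand (CD40L) was the stimulus, together with the cytokines IL4 and IL5, each at 10 U/mL, and sorting by GFP fluorescence took place on day 4. The GFP-positive and GFP-negative cells had 2 arrays each. As a cell type the labels give pre-plasmablasts for GFP-positive and B cell blasts for GFP-negative cells, although the sample titles call both of them B cell blasts. The labels give neither the locus that carries GFP nor whether the replicates were separate cultures or mice, so the error behind each p-value is that between arrays and may be only technical.

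Activated B cells divide fast before they become antibody-secreting cells. As a cell nears division, cyclin B with its kinase and the polo and aurora kinases drive spindle assembly, condensin compacts the chromosomes, and kinesins move along microtubules made of alpha- and beta-tubulin. The anaphase-promoting complex, switched on by Cdc20, then marks cyclin B and other proteins for destruction, which lets the cell complete mitosis. Many transcripts of this machinery are made in the late part of the cell cycle and are low in resting cells.

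On the whole array set, the eGFP probe read 12.75 and 12.72 log2 units in GFP-positive cells, against 9.28 and 9.39 in GFP-negative cells. Another probe, named GFP, was detected on 0 arrays and read 7.998 and 7.979 in GFP-positive cells, against 8.039 and 8.016 in GFP-negative cells. Prdm1 was not analysed here, so the genotype was not checked on its transcript. Of 12 B-cell markers 4 had a probe, and Cd74, Ighm, Igkc and Ebf1 were detected on all 4 arrays. Of these 4, Ebf1, a transcription factor of B-cell identity, was lower, at 10.42 and 10.43 in GFP-positive cells, against 11.13 and 11.15 in GFP-negative cells (-0.72, SE 0.08, adjusted p = 0.00562). The other 3 were not called (+0.04 to +0.05), and the part of Ebf1 in the mitosis results was not tested. Markers of other cells were sparse. Detection on at least 2 arrays was reached by 1 of 3 T-cell markers with a probe (Il7r), 1 of 8 myeloid ones (Itgam), 0 of 2 NK-cell ones and 2 of 3 erythroid ones (Hbb-b1 and Hbb-b2), and none of these 4 genes was called different. Itgam, at the dim end, read 8.30 and 8.28 in GFP-positive cells, against 7.96 and 7.98 in GFP-negative cells, and its part in the results was not tested.

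Of the 47 genes, 12 were higher in GFP-positive cells, 2 were lower and 33 were not called (limma, adjusted p under 0.05). This is 25.5% higher and 4.26% lower, against 5.83% and 5.29% of all features tested and 5.3% and 5.8% of the genes with a symbol. In either direction, 11.1% of features were called. The median change of the 47 was +0.26 log2 units, against -0.02 over all features. The sign was positive for 38 genes, against 7026 of the 15215 features. After cyclic loess it was positive for 38 genes as well. In 31 genes (66%) both GFP-positive arrays lay above both GFP-negative arrays, against 24.9% of all features. In 6 (12.8%) they lay below, against 31% of all features, and in 10 the groups overlapped. These counts include genes detected on only 2 arrays, 2 of them above and 1 below. For such genes the detection filter can itself favour groups that lie apart. Over all features, the groups lay apart in either direction in 55.8%. These cells were measured in bulk, so more cells in mitosis and more of a transcript per cell cannot be told apart.

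**Figure D1:**
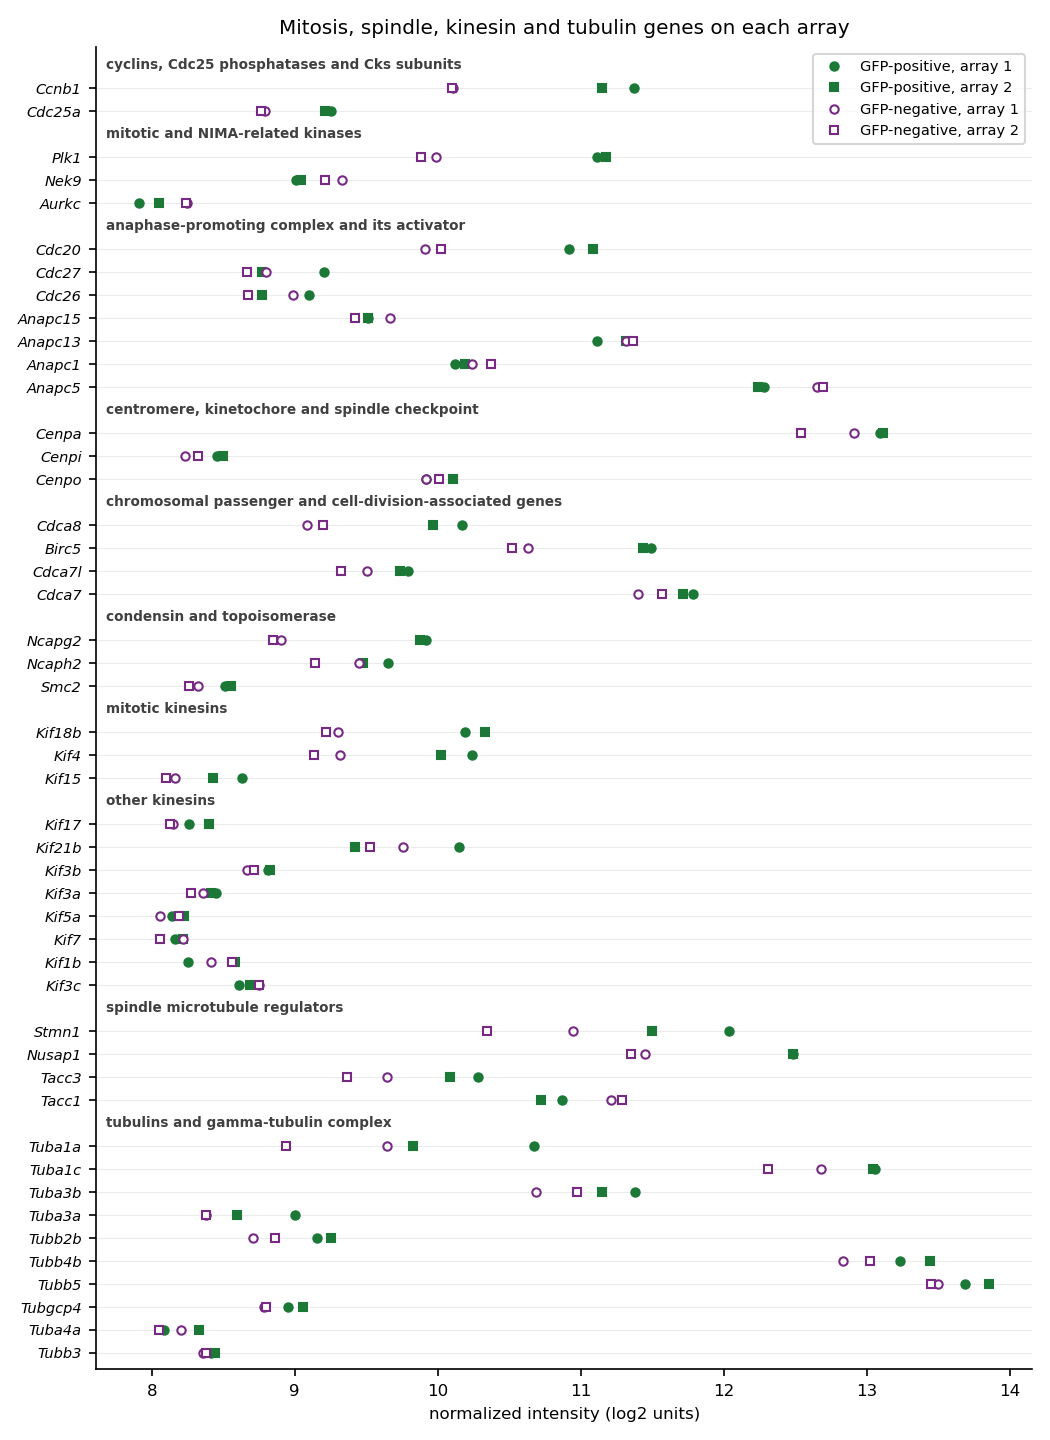
Normalized intensity (log2 units, horizontal axis) of the 47 genes, ordered by role, on each array. Filled points are the GFP-positive arrays and open points the GFP-negative arrays, with a circle for array 1 and a square for array 2. Ccnb1, Plk1, Cdc20, Ncapg2, Kif18b and Nusap1 show a wide gap between the groups, while the transport kinesins and most subunits of the anaphase-promoting complex lie close together.

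As the plot of their distribution shows, 11 genes had a change of at least 0.8 log2 units, no gene lay between 0.67 and 0.89, and the rest reached 0.67 at most. This threshold was set after the values were seen, and the gap does not hold when 1 array is left out. Without GFP-negative replicate 1, Tuba1c had a change of +0.74 and Tacc3 of +0.81. Without GFP-positive replicate 2, Tacc3 had +0.77, and without GFP-positive replicate 1, Kif4 had +0.80 and Tuba1a +0.53. The 11 were Plk1, Ccnb1, Stmn1, Nusap1, Cdc20, Ncapg2, Kif18b, Tuba1a, Cdca8, Kif4 and Birc5. They made up 23.4% of the 47, against 2.92% of all features, and 9 of them were called. Stmn1 and Tuba1a missed the call.

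**Figure D2:**
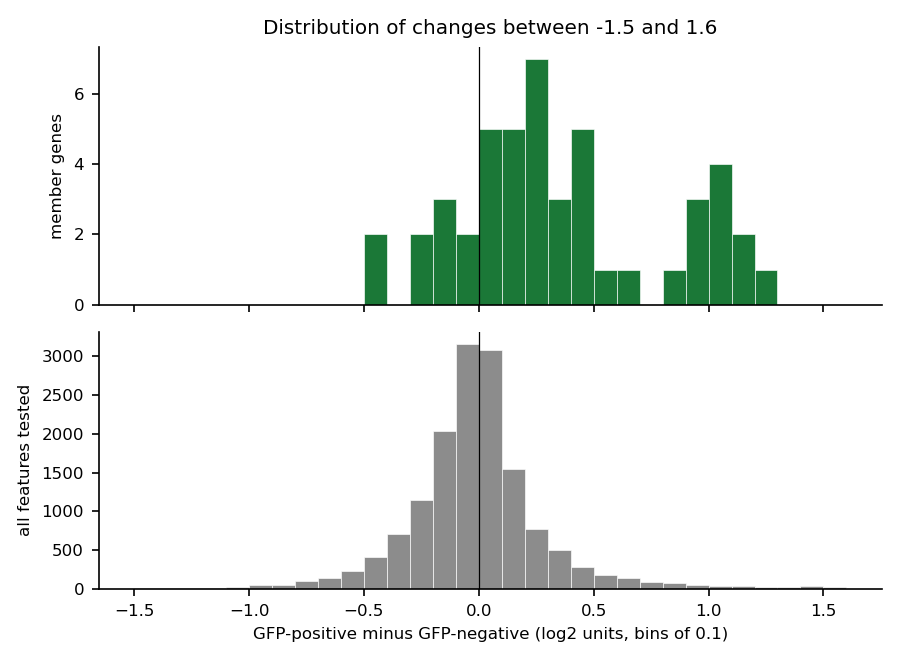
Number of genes among the 47 (top) and of all 15215 features (bottom) by change, GFP-positive minus GFP-negative, in bins of 0.1 log2 units. The axis is limited, and 40 features lie below and 102 above it. The features centre on 0, whereas the 47 lean to the right, with 11 genes above 0.8.

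The start regions of the 4 called genes with the largest change are printed here because genes of late cell cycle are known to share elements there. The cell cycle genes homology region (CHR) is bound by the DREAM and MuvB complexes, and the CCAAT box by NF-Y. Each window runs from 250 bases before to 50 after the annotated start (RefSeq, GRCm38.p6). That of Plk1 lies at chr7:122159185-122159484 on the plus strand. That of Ccnb1 lies at chr13:100786437-100786736 on the minus strand. That of Nusap1 lies at chr2:119618048-119618347 on the plus strand, and that of Cdc20 at chr4:118437294-118437593 on the minus strand. Capitals mark the CHR (TTTGAA), its palindromic variant (TTCGAA) and the CCAAT box in either orientation.
Plk1: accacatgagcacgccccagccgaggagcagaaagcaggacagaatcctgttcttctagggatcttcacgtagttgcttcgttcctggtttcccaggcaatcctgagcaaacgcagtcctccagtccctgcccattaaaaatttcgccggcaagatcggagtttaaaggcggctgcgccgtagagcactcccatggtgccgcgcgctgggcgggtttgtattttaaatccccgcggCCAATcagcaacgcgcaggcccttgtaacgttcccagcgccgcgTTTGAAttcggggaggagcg
Ccnb1: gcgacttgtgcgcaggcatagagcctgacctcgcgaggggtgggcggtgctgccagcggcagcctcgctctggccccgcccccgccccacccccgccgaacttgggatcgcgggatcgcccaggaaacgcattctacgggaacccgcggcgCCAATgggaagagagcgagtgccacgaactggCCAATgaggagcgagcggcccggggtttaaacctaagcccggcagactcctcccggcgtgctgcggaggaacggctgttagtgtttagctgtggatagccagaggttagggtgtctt
Nusap1: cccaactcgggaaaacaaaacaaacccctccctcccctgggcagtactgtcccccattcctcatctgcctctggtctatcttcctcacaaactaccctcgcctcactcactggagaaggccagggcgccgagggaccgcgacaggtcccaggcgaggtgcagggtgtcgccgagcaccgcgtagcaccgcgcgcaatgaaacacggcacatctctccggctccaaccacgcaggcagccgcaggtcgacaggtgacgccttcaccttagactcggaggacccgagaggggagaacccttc
Cdc20: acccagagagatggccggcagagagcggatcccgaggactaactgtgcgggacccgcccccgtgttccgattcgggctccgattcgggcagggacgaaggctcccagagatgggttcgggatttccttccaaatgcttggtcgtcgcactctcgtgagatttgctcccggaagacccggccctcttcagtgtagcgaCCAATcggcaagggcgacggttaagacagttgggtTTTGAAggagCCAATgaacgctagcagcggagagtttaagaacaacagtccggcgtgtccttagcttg

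Matches to TTTGAA stood 30 bases after the start in Plk1 and 18 before it in Cdc20, each near a CCAAT box (14 before the start in Plk1, 53 and 8 before it in Cdc20). The Ccnb1 window held CCAAT boxes 99 and 67 bases before the start and no match to TTTGAA or TTCGAA. The Nusap1 window held no match to these or to the CCAAT box. No other sequence was searched as a CHR, so other forms of it may have been missed. Windows were at hand for 42 of the 47 genes, among them 11 of the 12 higher ones. Kif21b, Kif5a, Stmn1, Tacc1 and Tubb2b had none.

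Among the higher genes, 6 of 11 (54.5%) held TTTGAA, against 5 of 31 (16.1%) among the remaining genes of the set and 14.8% of other tested genes. The palindrome TTCGAA was in 0 of the 11 and 1 of the 31, against 2.86% of other tested genes. A CCAAT box was in 7 of 11 (63.6%), against 17 of 31 (54.8%) and 43.8%. At least 2 CCAAT boxes were in 6 of 11 (54.5%), against 8 of 31 (25.8%) and 17.9%. A CHR or its variant together with a CCAAT box was in 5 of 11 (45.5%), against 4 of 31 (12.9%) and 7.38%. They were Cdc20, Cdca8, Kif18b, Kif4 and Plk1. The E2F core GGCGC was in 9 of 11 (81.8%), against 21 of 31 (67.7%) and 70.3%. Over all 32851 RefSeq windows, TTTGAA was in 17.9%, TTCGAA in 1.56%, a CCAAT box in 37.4%, at least 2 in 11.7% and GGCGC in 36.9%. Both strands were searched. In Cdca8 the TTTGAA match and a CCAAT box share 1 base. These are matches of letters in small numbers of windows, and no test was made.

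**Figure D3:**
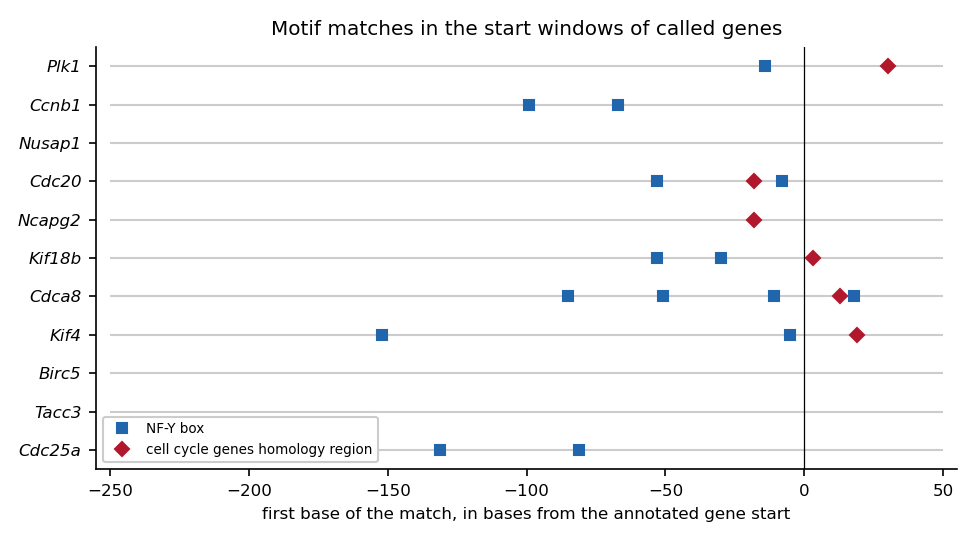
Matches to the cell cycle genes homology region (TTTGAA, diamonds) and to the CCAAT box that NF-Y binds (squares) in the windows of the 11 higher genes, by distance in bases from the annotated start (0). Genes are ordered by change. Diamonds lie within 30 bases of the start in Plk1, Cdc20, Ncapg2, Kif18b, Cdca8 and Kif4, and Nusap1, Birc5 and Tacc3 hold no match.

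Both measured genes of cyclin-dependent kinase activation were higher. Ccnb1 encodes cyclin B1, the partner with which Cdk1 starts mitosis. It read 11.37 and 11.15 log2 units in GFP-positive cells, against 10.11 and 10.10 in GFP-negative cells, a change of +1.16 (SE 0.10, adjusted p = 0.00356). The arrays of GFP-negative cells were nearly equal and lay more than 1 unit below the lower GFP-positive array. Cdc25a, a phosphatase that removes inhibitory phosphates from cyclin-dependent kinases, read 9.25 and 9.21 against 8.79 and 8.77 in GFP-negative cells, a change of +0.46 (SE 0.08, adjusted p = 0.0219). The groups did not overlap, but the call was lost in each of the 4 fits without 1 array (adjusted p 0.0721 to 0.108). Cks1b and Cks2, small subunits that bind Cdk1, had probes that were detected on 0 arrays.

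Among the kinases, Plk1 rose, and the other measured members, Nek9 and Aurkc, were not called. Plk1, which matures centrosomes and acts throughout mitosis, read 11.11 and 11.18 in GFP-positive cells, against 9.99 and 9.88 in GFP-negative cells. Its change of +1.21 (SE 0.08, adjusted p = 0.00190) was the largest among the 47, and the replicates of each group lay within 0.11 units. Another Plk1 probe, detected on 1 array and dim, did not show this rise. That probe read 7.97 and 8.10 in GFP-positive cells, against 8.26 and 8.11 in GFP-negative cells (-0.15). Nek9, a kinase that acts with Plk1 in spindle assembly, read 9.01 and 9.04 against 9.33 and 9.21 in GFP-negative cells (-0.25, SE 0.08, adjusted p = 0.137). Aurkc, the aurora kinase best known from germ cells, was detected on 2 arrays. It read 7.91 and 8.05 in GFP-positive cells, against 8.25 and 8.24 in GFP-negative cells (-0.26, SE 0.09, adjusted p = 0.126). Both had groups that did not overlap, with GFP-positive cells below, as in 31% of all features. For Aurkc, the GFP-positive values lie in the band that holds the central 95% of undetected probes (7.88 to 8.16). It may have passed detection only through the GFP-negative arrays, so its separation carries no weight. Nek2 had a probe that was detected on 0 arrays.

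The activator of the anaphase-promoting complex was higher, and 1 subunit was lower. Cdc20, which activates the complex and is itself held by the spindle checkpoint, read 10.92 and 11.09 in GFP-positive cells, against 9.91 and 10.02 in GFP-negative cells. Its change was +1.04 (SE 0.10, adjusted p = 0.00408), with +0.88 and +0.86 at its 2 dimmer probes. Of the 6 measured subunits none was higher. Anapc5 read 12.28 and 12.24 in GFP-positive cells, against 12.66 and 12.69 in GFP-negative cells, a fall of 0.41 (change -0.41, SE 0.08, adjusted p = 0.0308). The replicates lay close together, yet the call was lost with cyclic loess (adjusted p = 0.0643), with a trended and robust moderation, and in each of the 4 fits without 1 array (adjusted p 0.0912 to 0.144). The other subunits ranged from -0.15 for Anapc1, the scaffold, through -0.13 for Anapc13 and -0.03 for Anapc15 to +0.11 for Cdc26 and +0.25 for Cdc27, with adjusted p from 0.354 to 0.889. The groups overlapped in all of these but Anapc1. Anapc10 and Cdc23 were detected on 0 arrays. The difference between Cdc20 and the subunits was not tested.

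None of the 3 centromere genes was called. Cenpa, the histone H3 variant that marks the centromere, read 13.09 and 13.11 in GFP-positive cells, against 12.91 and 12.54 in GFP-negative cells (+0.38, SE 0.14, adjusted p = 0.152). The GFP-negative arrays differed by 0.37, as much as the groups did, and the gene passed without GFP-negative replicate 1 (adjusted p = 0.0449). Cenpi and Cenpo, of the constitutive centromere network, had changes of +0.20 (adjusted p = 0.192) and +0.05 (adjusted p = 0.827). Bub1 of the spindle checkpoint and Cenpc1 were detected on 0 arrays.

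Both measured subunits of the chromosomal passenger complex, which corrects spindle attachments and guides cell cleavage, were higher. Cdca8, known as borealin, read 10.17 and 9.97 in GFP-positive cells, against 9.08 and 9.20 in GFP-negative cells (+0.93, SE 0.10, adjusted p = 0.00643). Birc5, known as survivin, read 11.49 and 11.44 against 10.63 and 10.52 in GFP-negative cells (+0.89, SE 0.08, adjusted p = 0.00422). Its 2 dimmer probes gave +0.86 and +0.82, so all 3 Birc5 probes moved alike. The symbols Cdca7 and Cdca7l belong to nuclear proteins outside the spindle, Cdca7 being a partner of the chromatin remodeller HELLS and Cdca7l a partner of MYC. They had changes of +0.26 (adjusted p = 0.147) and +0.35 (adjusted p = 0.0826), with the groups apart in both.

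Of the condensin subunits, 1 of 3 was higher, against 5.83% of all features. Ncapg2, a subunit of condensin II, read 9.92 and 9.88 in GFP-positive cells, against 8.91 and 8.85 in GFP-negative cells (+1.02, SE 0.08, adjusted p = 0.00247). Ncaph2, a subunit of the same complex, had a change of +0.27 (95% interval -0.07 to 0.60, adjusted p = 0.281). Smc2, the ATPase that condensins I and II share, had +0.24 (95% interval 0.05 to 0.44, adjusted p = 0.121). All 3 had both GFP-positive arrays above both GFP-negative ones, as had 24.9% of all features. Only Ncapg2 was called, and whether the subunits differ was not tested.

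Of the 11 kinesins measured, 2 were higher, against 5.83% of all features, and both work on the spindle. Kif18b, which shortens astral microtubules at their plus ends, read 10.19 and 10.33 in GFP-positive cells, against 9.30 and 9.22 in GFP-negative cells (+1.00, SE 0.09, adjusted p = 0.00373). Kif4, a chromosome-bound kinesin of the spindle midzone, read 10.24 and 10.03 against 9.32 and 9.13 in GFP-negative cells (+0.91, SE 0.11, adjusted p = 0.00979). Neither group of arrays overlapped the other for these genes. Kif15, which helps to keep the spindle bipolar, was detected on 2 arrays and read 8.63 and 8.43 in GFP-positive cells, against 8.16 and 8.10 in GFP-negative cells (+0.40, SE 0.10, adjusted p = 0.0655). Its GFP-negative values lie in the band that holds the central 95% of undetected probes (7.88 to 8.16). Kif15 may have passed detection only through the GFP-positive arrays, so its separation carries no weight.

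The other 8 kinesins, most of them known as carriers of organelles and vesicles, had changes from -0.10 to +0.20, and 0 were called. They were Kif17 (+0.20), Kif21b (+0.14), Kif3b (+0.13), Kif3a (+0.12), Kif5a (+0.06), Kif7 (+0.05), Kif1b (-0.07) and Kif3c (-0.10), with adjusted p from 0.230 to 0.805. Their median was +0.09. All but Kif21b read only 8.06 to 8.82 on the arrays, within or not far above the band of undetected probes (7.88 to 8.16). Such dim probes leave little room to see a change, and a difference from the spindle kinesins was not tested. Kif21b varied most between replicates, at 10.15 and 9.42 in GFP-positive cells, against 9.75 and 9.53 in GFP-negative cells. Kif17, Kif5a and Kif7 were detected on 2 arrays. Kif17 read 8.26 and 8.40 in GFP-positive cells, against 8.15 and 8.12 in GFP-negative cells. Its GFP-negative values lie in the band of undetected probes. It too may have passed detection only through the GFP-positive arrays, so its separation carries no weight. Kif1a, Kif27 and Kif2a were detected on 1 array and thus just missed the choice. Their changes were +0.12, +0.19 and -0.03. Kif1c, Kif21a, Kif24 and Kif5b were detected on 0 arrays.

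**Figure D4:**
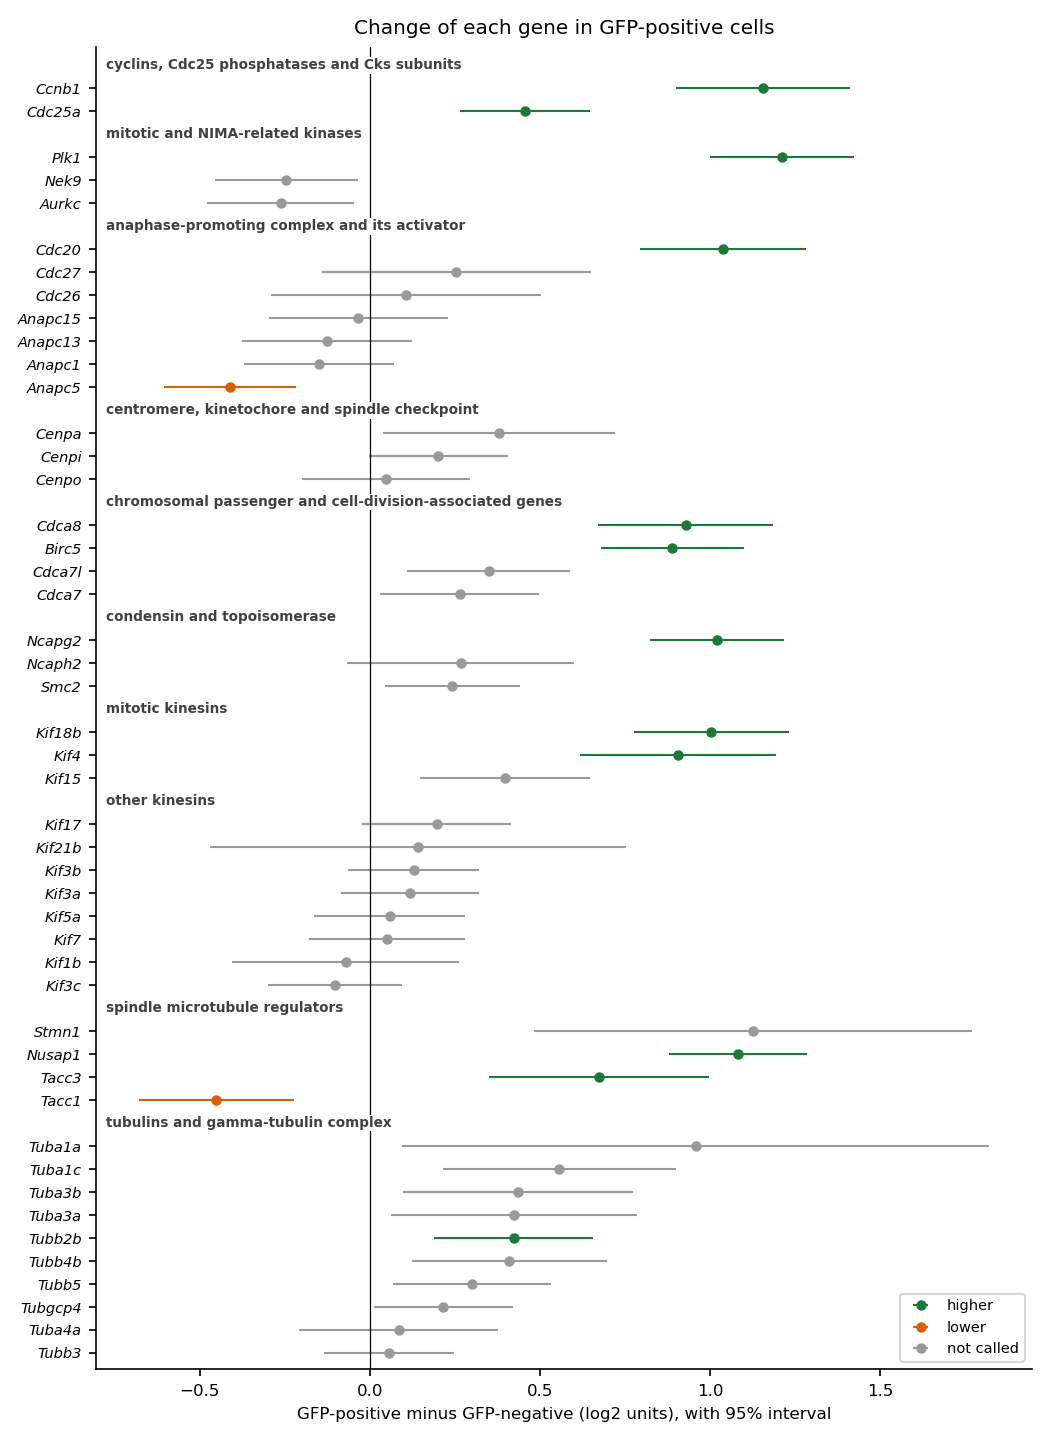
Change of each of the 47 genes (GFP-positive minus GFP-negative, log2 units) with its 95% interval from the moderated fit, not adjusted for the number of genes. Green marks genes called higher, orange those called lower and grey those not called. The 9 genes with narrow intervals near 1 contrast with Stmn1 and Tuba1a, whose estimates are as large but whose intervals are wide.

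Spindle microtubule regulators included the largest uncalled change. Nusap1, which bundles spindle microtubules, read 12.49 and 12.48 in GFP-positive cells, against 11.45 and 11.35 in GFP-negative cells (+1.08, SE 0.08, adjusted p = 0.00231). Stmn1, or stathmin, which binds tubulin dimers and destabilises microtubules, read 12.04 and 11.50 against 10.94 and 10.35 in GFP-negative cells. Its change of +1.13 (SE 0.26, 95% interval 0.48 to 1.77, adjusted p = 0.0514) just missed the threshold. Replicate 1 was above replicate 2 by 0.54 in GFP-positive cells and by 0.60 in GFP-negative cells, and the groups did not overlap. Stmn1 passed without GFP-negative replicate 1 (adjusted p = 0.0220), over the probes detected on all arrays (adjusted p = 0.0449), with trended and robust moderation (adjusted p = 0.0301) and in the fit by replicate number given with the alternatives.

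The paralogues Tacc3 and Tacc1 had calls in opposite directions. Tacc3, which stabilises spindle fibres together with Ckap5, read 10.28 and 10.08 in GFP-positive cells, against 9.65 and 9.37 in GFP-negative cells (+0.67, SE 0.13, adjusted p = 0.0323). Tacc1 read 10.87 and 10.73 in GFP-positive cells, against 11.21 and 11.29 in GFP-negative cells, a fall of 0.45 (change -0.45, SE 0.09, adjusted p = 0.0365). Neither call was firm. Tacc3 held without GFP-negative replicate 1 (adjusted p = 0.0247) and was lost without each other array (adjusted p up to 0.122), and Tacc1 was lost with cyclic loess (adjusted p = 0.0663), with the trended and robust moderation, and in each of the 4 fits without 1 array (adjusted p 0.0699 to 0.158).

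All 10 genes of the tubulin group had a positive sign, against 7026 of the 15215 features tested. Their median was +0.42, but only Tubb2b was called. Tubulins resemble each other within the alpha and within the beta family, so a probe may also bind transcripts of its relatives. Probe sequences were not compared here, and the 9 alpha- and beta-tubulin genes should not be counted as 9 independent observations. Among the alpha-tubulins, which form the minus-end side of the dimer, Tuba1a read 10.67 and 9.83 in GFP-positive cells, against 9.65 and 8.94 in GFP-negative cells. Its change was +0.96 (SE 0.34, 95% interval 0.09 to 1.82, adjusted p = 0.153), and the groups did not overlap. Replicate 1 was above replicate 2 by 0.85 in GFP-positive cells and by 0.70 in GFP-negative cells, the same way in both. Tuba1a, too, passed in the fit by replicate number. Tuba1c read 13.06 and 13.04 against 12.68 and 12.31 in GFP-negative cells (+0.56, SE 0.14, adjusted p = 0.0624). It passed with cyclic loess, with the trended and robust moderation and without GFP-negative replicate 1 (adjusted p = 0.0212).

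Tuba3b and Tuba3a are alpha-tubulin genes best known from testis. The Tuba3b probe had a clear signal, and the Tuba3a probe was dimmer. Tuba3b read 11.38 and 11.15 in GFP-positive cells, against 10.69 and 10.97 in GFP-negative cells (+0.43, SE 0.13, adjusted p = 0.110). Tuba3a read 9.002 and 8.599 against 8.377 and 8.376 in GFP-negative cells (+0.42, SE 0.14, adjusted p = 0.135), and passed without GFP-positive replicate 2 (adjusted p = 0.0409). Other Tuba3a probes, detected on 1 and 0 arrays, had changes of +0.11 and -0.02. Whether the Tuba3b and Tuba3a probes report their own gene was not tested. Tuba4a, detected on 2 arrays, read 8.08 and 8.33 against 8.20 and 8.05 in GFP-negative cells (+0.08, adjusted p = 0.723), with overlap. Tuba8 was detected on 0 arrays.

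Of the 4 beta-tubulins, 1 was called higher, against 5.83% of all features. Tubb2b read 9.16 and 9.25 in GFP-positive cells, against 8.71 and 8.86 in GFP-negative cells (+0.42, SE 0.09, adjusted p = 0.0468). This call was lost in each of the 4 fits without 1 array (adjusted p 0.0868 to 0.162). Tubb4b read 13.23 and 13.44 against 12.84 and 13.02 in GFP-negative cells (+0.41, SE 0.11, adjusted p = 0.0860). Tubb5, a broadly used beta-tubulin, read 13.69 and 13.86 against 13.50 and 13.45 in GFP-negative cells (+0.30, SE 0.09, adjusted p = 0.110). In each of these 3 the GFP-positive arrays lay above the GFP-negative ones, as in 24.9% of all features. Tubb3, the neuronal form, read 8.41 and 8.44 against 8.36 and 8.38 in GFP-negative cells (+0.06, adjusted p = 0.712). Tubgcp4, of the gamma-tubulin ring that seeds microtubules, read 8.95 and 9.06 against 8.78 and 8.80 in GFP-negative cells (+0.22, adjusted p = 0.169), and Tubgcp5 and Tubgcp6 were detected on 0 arrays.

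Of the 12 higher genes, 9 kept their call whichever array was left out: Plk1, Nusap1, Ncapg2, Ccnb1, Kif18b, Cdc20, Birc5, Cdca8 and Kif4 (highest adjusted p = 0.0394, for Kif4). Cdc25a and Tubb2b lost theirs in all of these fits and Tacc3 in 3 of 4. Both lower genes lost theirs in all 4.

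**Figure D5:**
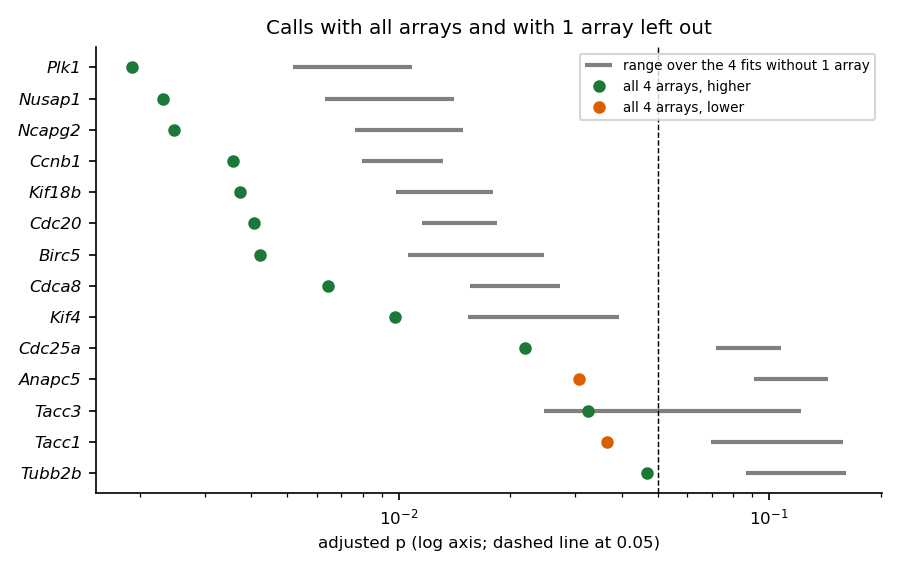
Adjusted p (log axis) of the 14 called genes with all 4 arrays (points, green for higher and orange for lower) and its range over the 4 fits that leave out 1 array (grey bars). The dashed line is the 0.05 threshold. The bars of the first 9 genes stay left of it, and those of Cdc25a, Anapc5, Tacc1 and Tubb2b lie wholly to its right.

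A list of 99 further symbols of mitosis and cytokinesis, older names included, gave 33 tested genes. Of these, 8 were higher (24.2%), 1 was lower (3.03%) and 24 were not called, against 5.83% higher and 5.29% lower of all features. The median change was +0.17, against -0.02 over all features, with a positive sign for 25 genes and a negative sign for 8. The largest change, that of Ube2c, was not called (+1.39, adjusted p = 0.0774). Ube2c read 10.52 and 9.40 in GFP-positive cells, against 8.76 and 8.37 in GFP-negative cells. Mki67 was not called either (+0.95, adjusted p = 0.0594), at 11.67 and 11.70 against 10.38 and 11.08 in GFP-negative cells. Depdc1b, a regulator of cell division, read 9.50 and 9.70 in GFP-positive cells, against 8.64 and 8.61 in GFP-negative cells (+0.97, SE 0.10, adjusted p = 0.00511). Pbk, a mitotic kinase, read 9.66 and 9.58 against 8.70 and 8.66 in GFP-negative cells (+0.94, SE 0.08, adjusted p = 0.00330). Sgo1, which protects cohesion at the centromere, read 9.46 and 9.30 against 8.51 and 8.47 in GFP-negative cells (+0.89, SE 0.09, adjusted p = 0.00517). In Pbk and Sgo1 the groups lay well apart. Over the mean of its probes, Sgo1 had a smaller change of +0.63 (adjusted p = 0.0318). Kpna2, a nuclear import factor, read 11.40 and 11.16 against 10.48 and 10.43 in GFP-negative cells (+0.82, SE 0.11, adjusted p = 0.0101). The single lower gene was Tbca, a chaperone of beta-tubulin folding, named after its value was seen. It read 12.39 and 12.33 in GFP-positive cells, against 12.92 and 13.07 in GFP-negative cells (-0.63, SE 0.09, adjusted p = 0.0139). Its call held without GFP-negative replicate 1 (adjusted p = 0.0251) and was lost without each other array (adjusted p 0.0518 to 0.0615). Of 46 genes of DNA replication, 15 were tested, with 3 higher (20%, against 5.83% of all features), 0 lower and a median of +0.30. The sign was positive for 12 of them and negative for 3. Pcna was not called (+0.83, adjusted p = 0.185). The higher genes were Rrm2, Cdc6 and Tk1. Rrm2, a subunit of ribonucleotide reductase, had +1.03 (adjusted p = 0.00477), and +0.85 over the mean of its probes. Cdc6, which loads the replicative helicase, had +0.88 (adjusted p = 0.0345). Tk1, a thymidine kinase, had +0.36 (adjusted p = 0.0483). Of these 3, only Rrm2 kept its call in every alternative run. Cdc6 lost it without GFP-positive replicate 1 (adjusted p = 0.126), without GFP-positive replicate 2 (adjusted p = 0.101) and with no detection filter (adjusted p = 0.0607), and its change was +0.58 over the mean of its probes. Tk1 lost it in each of the 4 fits without 1 array (adjusted p 0.108 to 0.180), over the probes detected on all arrays (adjusted p = 0.0534) and with trended and robust moderation (adjusted p = 0.0824).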

How the data were processed

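The authors deposited values of 4 single-colour Illumina arrays that they had normalized with lumi, per the submitters' processing notes, and that were read here as log2 (7.71 to 16.07, nearly identically distributed). The lumi version and the transformation are not given in sources used here. The deposited detection p-values, per the file headers, stand beside 4 signal columns that match no sample label. These signals were not used, and detection was only counted over arrays. Numbers within scl0 and scl00 probe names were read as NCBI Gene IDs and named from RefSeq (GRCm38.p6), which named 9807 of 11868 probes.

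The difference, GFP-positive minus GFP-negative, came from limma 3.58.1 in R 4.3.3 (lmFit, eBayes) over all 15215 features, with 2 residual and 3.40 prior degrees of freedom, two-sided, adjusted by Benjamini and Hochberg, called under 0.05 and tested on simulated data. Every adjusted p is from limma. An exact permutation of 2 against 2 arrays could not reach 0.05. The number of arrays limits the precision. Alternatives were cyclic loess, other detection filters, the mean of a gene's probes, trended and robust moderation, a replicate block and leaving out each array. The genes, lists and motifs were chosen with earlier results of these data known. Array values are given for called members (up to 4 per role), lower members and tubulins, and for the member with the smallest p where a role has no call; other members are named with their change, and some with array values chosen after they were seen. Further lists give up to 4 called genes, and some lower or uncalled genes named after their values were seen. Tubulin proteins were not used here.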

Additional observations from a re-analysis of the deposited data

How the results depend on the processing

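No gene among the 47 changed sign under cyclic loess, either detection filter, the mean of a gene's probes, trended and robust moderation or the replicate block. When 1 array was left out, 2 or 3 uncalled genes did, among them Cdc26, Kif21b and Kif1b. The count of higher genes was 12 to 15 under the settings other than the block and 9 to 13 when 1 array was left out, and all 12 stayed called under every setting that kept the 4 arrays. The count of lower genes was 0 with cyclic loess, 1 with trended and robust moderation (Aurkc, in place of Anapc5 and Tacc1) and 0 to 0 when 1 array was left out. The median change was 0.13 over 64 genes with no detection filter and 0.22 to 0.31 when 1 array was left out. Of the further mitosis genes, 6 to 7 were higher and 0 to 1 lower when 1 array was left out. All features called numbered 844 (without GFP-negative replicate 2) to 1228 then, with 890 when GFP-positive replicate 1 and 920 when GFP-positive replicate 2 was left out, against 1692 with all arrays.

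With the replicate number as a block, 23 of the 47 were higher and 2 lower, and 15 and 4 of the further mitosis genes. Of all 15215 features, 3986 were called in this fit, 1861 higher and 2125 lower, against 887 and 805 in the main fit. Calls thus rose over the whole array and not only in these lists. The 11 genes gained were Cdca7l, Cenpa, Kif15, Ncaph2, Stmn1, Tuba1a, Tuba1c, Tuba3a, Tuba3b, Tubb4b and Tubb5. Stmn1 reached an adjusted p = 2.76e-08 and Tuba1a an adjusted p = 3.13e-07 (limma) in this fit. With the block, fewer residual degrees of freedom remain than in the main fit, so these p-values rest mostly on variance pooled over features. Their small size is therefore not strong evidence from the replicates of these genes. Deviations of same-numbered arrays from their group means had a correlation of 0.44 over all features and 0.56 over the 47, but the labels state no shared culture or batch. Signal over background limits the 6 genes detected on 2 arrays. It also limits dim genes detected on all 4, such as Kif3a, Kif1b, Tubb3, Cenpi and Smc2. These read 8.23 to 8.58, little above the band of undetected probes (7.88 to 8.16).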
